A study of Mus musculus with 14 samples.

Results

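Regions of acetylated histone H3 (H3AcK27) were examined that had been called in both libraries of 3T3-L1 cells treated with TNFα and in neither library of cells without it. A region belonged to this group when it was listed in the TNFα library, overlapped by at least 1 bp a region of the library from cells given forskolin and TNFα, and overlapped no region of the control or forskolin library. In all, 1362 of the 49754 regions of the TNFα list met this rule (2.74%), out of 182986 regions in the 4 H3AcK27 lists, and they are called TNFα-only regions here. The members were thus chosen by their H3AcK27 calls, and their acetylation values are given as a description with no test. The 3T3-L1 line consists of mouse fibroblasts committed to the fat lineage, which had been differentiated toward adipocytes for 4 days. They were left untreated (control) or exposed for 1 h to forskolin (FSK, 10 µM), an activator of adenylyl cyclase, to TNFα (10 ng/ml), or to both agents at once (FSK/TNFα). Chromatin was immunoprecipitated for H3AcK27, for the NF-κB subunit p65, and for the CREB coactivator CRTC2, with 1 library for each target and treatment, so no value here has a replicate check and no difference between treatments was tested. Acetylation at start sites in control cells matched the adipocyte label only in part. The start sites of Fabp4, Pparg, and Lpl lay in control H3AcK27 regions, those of the other 5 of 8 adipocyte markers (Adipoq, Plin1, Cebpa, Cd36, and Cidec) did not, and those of 6 of 6 preadipocyte and fibroblast markers and 1 of 7 macrophage markers (Csf1r) did. None of these markers had a TNFα-only region within 50 kb.

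Acetylation of histone H3 at lysine 27 marks active promoters and enhancers, and new marks away from promoters are widely used to find enhancers that a signal has switched on. TNFα binds its receptor at the cell surface and activates the IκB kinase complex, which releases NF-κB dimers containing p65 to enter the nucleus, bind their sites in DNA, and recruit histone acetyltransferases. In adipocytes TNFα induces chemokines, acute phase proteins, and inhibitors of its own pathway, and lowers the expression of adipocyte genes. Forskolin raises cAMP, which sends CRTC2 to the nucleus as a coactivator of CREB.

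Sequences are shown first for the TNFα-only regions in which a p65 peak was called in both TNFα-treated p65 libraries. There were 6 of them. Each was named by the protein-coding gene with the nearest start site, which need not be the gene it acts on. For 4 of the 6, the following 200 bases are centered on the midpoint of the p65 peak of the TNFα library, on the plus strand of GRCm38 as given by RefSeq. Capitals mark a match to an NF-κB pattern (GGAANTTCC or GGGANTTTC on either strand). The region at Cfb is given only as the 30 bases around its match because the window runs into an untranslated region.
Rpl3, chr15:80061168-80061367: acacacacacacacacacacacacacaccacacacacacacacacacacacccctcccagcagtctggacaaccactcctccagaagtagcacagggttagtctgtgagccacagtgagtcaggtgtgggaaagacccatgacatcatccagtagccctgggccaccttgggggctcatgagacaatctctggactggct
Psd3, chr8:68068313-68068512: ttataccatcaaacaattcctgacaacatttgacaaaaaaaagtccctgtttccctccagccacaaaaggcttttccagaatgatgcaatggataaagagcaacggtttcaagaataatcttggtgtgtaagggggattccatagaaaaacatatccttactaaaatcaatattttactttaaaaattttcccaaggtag
Myh13, chr11:67390834-67391033: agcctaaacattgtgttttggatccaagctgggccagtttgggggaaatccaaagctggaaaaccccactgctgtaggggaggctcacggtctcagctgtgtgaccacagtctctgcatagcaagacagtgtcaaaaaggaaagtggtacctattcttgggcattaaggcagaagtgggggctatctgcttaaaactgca
Cblb, chr16:52044139-52044338: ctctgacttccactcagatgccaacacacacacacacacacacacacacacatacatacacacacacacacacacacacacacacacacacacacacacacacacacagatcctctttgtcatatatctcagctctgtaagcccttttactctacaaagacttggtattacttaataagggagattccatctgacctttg
Cfb, chr17:34862630-34862659: ttacataactGGGAAATTCCgtgtgaaagc
Of these 5, the stretch at Cfb held a match, and the windows near Rpl3, Psd3, Myh13, and Cblb held neither pattern. Looser forms of the NF-κB site were not searched, so a window without a match may still hold one. The sequence of the other region, near Slc35c1, is not reported here. Another 2 windows belong to regions with p65 and CRTC2 peaks in the same treatment and held no match.
Lrig2, chr3:104556685-104556884 (FSK/TNFα library): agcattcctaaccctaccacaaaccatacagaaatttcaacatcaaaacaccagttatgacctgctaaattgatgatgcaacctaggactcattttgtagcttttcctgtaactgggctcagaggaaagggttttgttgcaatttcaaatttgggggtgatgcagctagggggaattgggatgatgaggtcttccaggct
Cwh43, chr5:73401760-73401959 (TNFα library): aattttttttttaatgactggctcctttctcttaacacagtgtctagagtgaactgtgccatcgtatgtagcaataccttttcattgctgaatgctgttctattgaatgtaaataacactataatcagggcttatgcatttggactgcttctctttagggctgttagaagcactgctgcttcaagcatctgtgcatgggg
A second set of 30-base stretches comes from TNFα-only regions over 1000 bp wide that held, within 250 bp of their midpoint, the longer NF-κB sequence searched by the study, a decamer that contains GGAANTTCC. Of 9 such regions, Cfb is given above. Next come 7 others, in falling order of H3AcK27 tags.
St8sia6, chr2:13750334-13750363: gcttccttagGGGAATTTCCaatccccaga
Smurf1, chr5:144931776-144931805: aaggagggcgGGAAATTCCCtatgggatat
Trim56, chr5:137096221-137096250: gctttagaggGGGAAATTCCagtcttgatt
Tgm2, chr2:158145473-158145502: cgaggcctctGGAATTTCCCtgtttgcttc
Macf1, chr4:123650372-123650401: aagaaatgtaGGGAAATTCCagcccctggg
Irak3, chr10:120188592-120188621: tgctgcccagGGGAATTTCCattggaaaac
Dab2ip, chr2:35701068-35701097: tttcttcccaGGAAATTCCCcaggctgact

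The TNFα-only regions were narrow and weak beside the list they came from. Normalized tags are the sequenced fragments in a region after scaling of each library to a total of 10000000. In the TNFα library the TNFα-only regions ran from 4.65 to 183.1 normalized tags with a median of 11.8, where all TNFα regions had a median of 43.6. Their median rank by tags was 38790 of 49754. In the FSK/TNFα library the region that overlapped each of them most, called its partner here, had a median of 10.9 normalized tags. Tags of a region and of its partner are totals over each one's own width. Their median width was 631.5 bp against 1494 bp for all TNFα regions, and 46.0% had the smallest width in the list, 500 bp. The authors required at least 4-fold more tags than in the input, and 44.9% of TNFα-only regions were under 5-fold, compared with 22.0% of all TNFα regions. The regions most enriched over input, at 8-fold or more, made up 11.3% of them and 37.6% of the whole list. Acetylation per kb differed little between the pair of TNFα-treated libraries. The partner's density over the region's own had a median of −0.06 on the log2 scale, with quartiles of −0.37 and 0.26, compared with a median of −0.10 over the 31650 TNFα regions with any FSK/TNFα region.

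The FSK library of H3AcK27 was the shallowest of the 12, with 9832884 tags where the largest had 31807394. The other H3AcK27 totals were 27601287 (control), 27966129 (TNFα), and 25729060 (FSK/TNFα). Regions of the control and TNFα libraries were called against input chromatin from untreated cells, and those of both FSK libraries against input from FSK-treated cells. A region below the threshold is not listed, so absence from the control and FSK lists does not show absence of acetylation. Of the 49754 TNFα regions, 31650 overlapped a FSK/TNFα region and 7364 overlapped neither a control nor a FSK region, and 6002 overlapped no region of any other list. A control or FSK region lay within 1000 bp of 26.9% of TNFα-only regions and within 5000 bp of 62.6%. At the edge of the rule, the member with the least overlap shared 1 bp with its partner (chr12:8683436-8683936, 10.7 normalized tags), and the nearest control or FSK region to any member was 6 bp away (chr1:155797087-155797808, 11.4 normalized tags). Just outside the rule, a region of 10.4 normalized tags at chr16:30524543-30525043 shared 2 bp with such a region. In all, 45 members lay under 100 bp from a control or FSK region. Of the 30288 TNFα regions that overlapped a FSK/TNFα region and also a control or FSK region, 59 shared under 100 bp with the latter. The part of depth, input, and threshold in the calls was not tested.

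For 1181 of the 1362 regions (86.7%), the partner in the FSK/TNFα library also overlapped no control or FSK region. The partners of the other 181 did. This second kind filled the top of the list when members were ranked by the mean of their tags in both libraries. The 10 regions with the highest mean lay near Tmem88, Epn2, Mafg, Gorab, Cyp1b1, Sash1, Stk40, Klf7, Abcc1, and Ppp3ca. In the TNFα library they had only 6.79 to 19 normalized tags, whereas their partners had 731.1 to 3211.2 tags and spanned 6990 to 15555 bp. All 10 partners overlapped a control or FSK region, and a control region lay 107 to 1175 bp from the member itself. These 10 were short TNFα calls beside broad regions that were also called without TNFα.

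**Figure D1:**
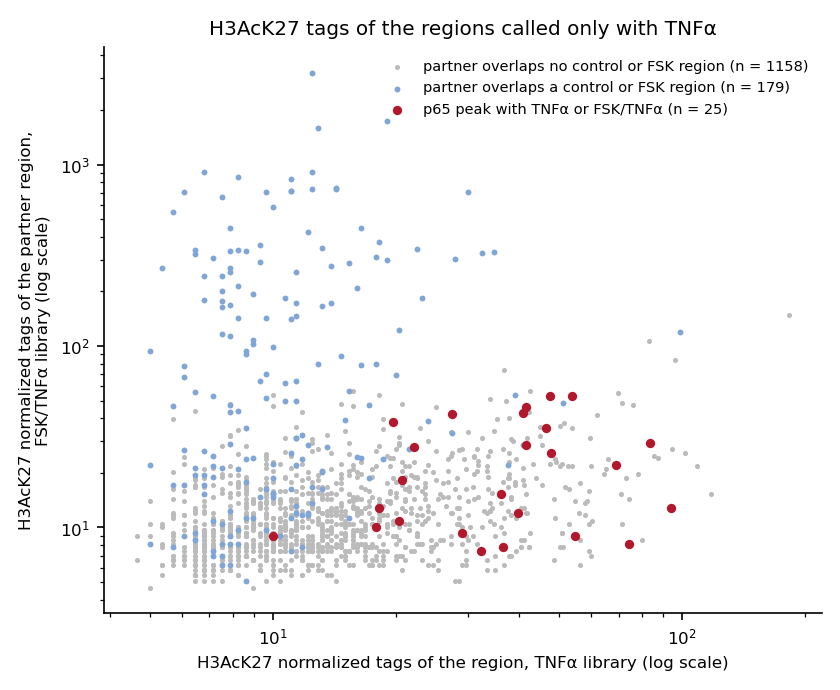
Each point is 1 of the 1362 TNFα-only regions, with its H3AcK27 normalized tags in the TNFα library on the x axis and those of its partner in the FSK/TNFα library on the y axis, both on log scales. Grey points have a partner that overlaps no control or FSK region, blue points a partner that does, and red points, taken from either kind, are the 25 regions with a p65 peak in a TNFα-treated library. The points with partners of up to 3211.2 tags are blue, and the red points have 10 tags or more in the TNFα library.

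The strongest regions in both libraries, ranked by the lower of the 2 tag values in an order chosen after the values were seen, mostly had partners that overlapped no control or FSK region, with the exceptions of 4930523C07Rik and Shb. The first was a region of 4394 bp in an intron of Ppp3ca, which encodes the catalytic subunit of the phosphatase calcineurin. It had 183.1 normalized tags with TNFα and 148.5 with FSK/TNFα, the highest TNFα value of all members. A control region began 370 bp away. A region in an intron of 4930523C07Rik had 99 and 119.3 tags, one in Adgrv1 had 96.2 and 84.3, and one in Actn1, which encodes the actin crosslinker α-actinin, had 83.3 and 106.5. A region in an intron of Met, the receptor for hepatocyte growth factor, had 69.7 normalized tags with TNFα and 55.2 with FSK/TNFα, and its nearest control region was 3052 bp away. The next was the region over the start of Cfb, described below. Other members of the first 10 lay near Dlg1, Shb, Adora2b, and Pim2. In these 10 the fold over input ran only from 4.37 to 7.3 in the TNFα library.

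TNFα-only regions lay mostly away from promoters. A promoter was taken as 1000 bp upstream to 100 bp downstream of a protein-coding start site, and 60 of the 1362 regions overlapped one (4.41%, 95% Wilson interval 3.44 to 5.63%), whereas 21.7% of all TNFα regions did. Intervals here and throughout cover counting error over regions only. Introns held 54.8% of TNFα-only regions, intergenic DNA 37.4%, and exons outside promoters 3.30%. Beside the list, the promoter share was similar among narrow regions and far lower among wide ones. Among regions of at most 1000 bp, a limit chosen after the data were seen, promoters made up 4.22% of the TNFα-only regions and 4.71% of the whole TNFα list. Among wider regions the values were 5.07% and 31.2%. The median distance to the nearest start site was 22020.5 bp, compared with 16955 bp for all TNFα regions. Of the 1302 regions outside promoters, 54.6% had their nearest start site in a control H3AcK27 region, and 55.8% of the TNFα list outside promoters did, a value within the interval of the members (51.9 to 57.3%).

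A start site fell inside 31 TNFα-only regions. The 5 with the highest mean tags lay at Pum2, Scamp2, Cfb, Garem1, and Hivep3. Pum2 encodes an RNA-binding repressor of translation. Its region had 27.9 normalized tags with TNFα and 301.2 in a broad partner. Scamp2, which encodes a membrane trafficking protein, had 20.4 and 122.4 tags, also with a partner that overlapped a region without TNFα. Garem1, an adaptor of growth factor receptors, had 51.5 and 37.7 normalized tags, with the nearest control region 23731 bp away. Hivep3, a zinc finger protein that binds NF-κB sites, had 60.1 normalized tags with TNFα and 21.8 with FSK/TNFα. Garem1 was also 1 of 3 TNFα-only regions with a CRTC2 peak in both TNFα-treated libraries, where its CRTC2 scores were 21 and 18, beside 14 in the FSK library. Cfb differed from the other 4 in holding p65 peaks.

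Complement factor B, the serine protease of the alternative complement pathway, is encoded by Cfb (ENSMUSG00000090231). The TNFα-only region at chr17:34861837-34863784 covered its start site. It had 54 normalized H3AcK27 tags with TNFα (5.34-fold over input) and 53.2 with FSK/TNFα (5.17-fold), while the nearest control and FSK regions were 10510 and 10648 bp away. A p65 peak was called there with a score of 9 in both the TNFα and the FSK/TNFα library, where the score counts tags at most once per position. The midpoints of the p65 peaks were 59 bp apart. A CRTC2 peak with a score of 19 was called in the FSK/TNFα library and in no other. Its NF-κB match, printed above, lay 165 bp from the midpoint of the region. The match was within the 200 bp at the TNFα p65 peak and outside those at the FSK/TNFα p65 peak.

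Few TNFα-only regions held a p65 peak. In the TNFα p65 library 13 regions did (0.954%, interval 0.559 to 1.63%), compared with 1.81% of all TNFα regions. In the FSK/TNFα library 18 regions did (1.32%, interval 0.838 to 2.08%), compared with 2.86%. In the control p65 library 1 region did and in the FSK library 2. In the whole TNFα list lay 40 of the 214 control p65 peaks and 579 of the 2969 FSK p65 peaks. A pair of groups defined in the same way served for comparison: 1205 FSK-only regions, called in both libraries with FSK and in neither without it, and 994 regions called in the control and FSK libraries and in neither with TNFα. The FSK-only regions held p65 peaks in 3 cases with TNFα (0.249%) and 4 with FSK/TNFα (0.332%), and the regions called only without TNFα held them in 4 (0.402%) and 3 (0.302%). Over both libraries, 25 TNFα-only regions (1.84%, interval 1.25 to 2.70%) had a p65 peak, against 7 (0.581%, interval 0.282 to 1.19%) and 7 (0.704%, interval 0.342 to 1.45%) in the other groups. Among all TNFα regions the FSK/TNFα library alone gave 2.86%, above the interval of the TNFα-only regions over both libraries. In 6 TNFα-only regions, and in 0 of 1205 and 0 of 994 regions of the other groups, a p65 peak was called in both libraries. The matching count over the whole TNFα list is not given here. With 1 library per treatment no test was made of these differences. The p65 libraries listed 2404 peaks with TNFα, 4221 with FSK/TNFα, 2969 with FSK, and 214 in control cells.

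The p65 shares moved with the width of the regions. Among the 296 TNFα-only regions over 1000 bp, 11 held a p65 peak with TNFα (3.72%, interval 2.09 to 6.53%) and 13 with FSK/TNFα (4.39%, interval 2.58 to 7.37%), beside 2.68% and 4.20% of all TNFα regions of that width. Among the 1066 narrower ones the shares were 0.188% and 0.469%, beside 0.278% and 0.506%. In each width class the share of the whole list lay within the interval of the TNFα-only regions (0.0515 to 0.681% and 0.201 to 1.09% for the narrower ones). Over 1000 bp the regions were still unlike in width, with medians of 1389.5 bp for TNFα-only regions and 2273 bp for the list. The 25 regions with p65 had a median of 39.7 normalized H3AcK27 tags with TNFα and a median width of 1444 bp, and the other 1337 had 11.8 tags and 631 bp. Most p65 peaks lay elsewhere. Only 13 of 2404 peaks of the TNFα library (0.541%) and 18 of 4221 of the FSK/TNFα library (0.426%) fell in a TNFα-only region, while 37.8% and 34.1% fell in H3AcK27 regions of control cells.

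**Figure D2:**
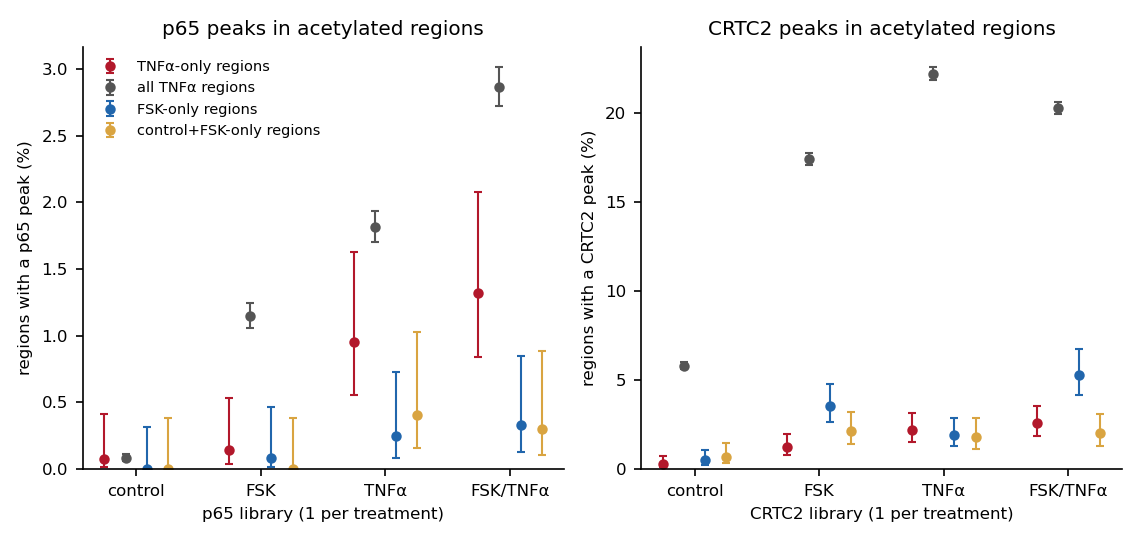
The y axes give the percentage of regions overlapped by a p65 peak (left) or a CRTC2 peak (right), and the x axes the p65 or CRTC2 library, 1 per treatment. Points are shares and bars 95% Wilson intervals over regions for the 1362 TNFα-only, 49754 TNFα, 1205 FSK-only, and 994 control+FSK-only regions. With FSK/TNFα, p65 peaks were in 1.32% of TNFα-only and 0.332% of FSK-only regions, and CRTC2 peaks in 2.57% and 5.31%.

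The regions with a p65 peak in both libraries differed among themselves in acetylation. The one near Rpl3, which encodes a ribosomal protein, spanned 3663 bp at chr15:80060191-80063854 and had 94 normalized H3AcK27 tags with TNFα but 12.8 in a partner of 627 bp with FSK/TNFα. Per kb the values were closer, 25.7 and 20.4 tags. Its p65 scores were 12 and 14. The highest p65 score with TNFα, 16, was in the region near Psd3, a nucleotide exchange factor for small GTPases, where the FSK/TNFα library gave 10 and the H3AcK27 tags were 20.4 and 10.9. Near Myh13, a muscle myosin gene, the p65 scores were 8 and 10 and the H3AcK27 tags 41.5 and 28.4. In an intron of Cblb, a ubiquitin ligase that restrains receptor signaling, the p65 scores were 10 and 7 and the H3AcK27 tags 19.7 and 38.1. Upstream of Slc35c1, the Golgi transporter of GDP-fucose needed for selectin ligands, the p65 scores were also 10 and 7 and the H3AcK27 tags 22.2 and 27.6. The p65 midpoints of the 2 libraries lay 44 to 90 bp apart in the 6 regions.

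Another 7 regions had a p65 peak only in the TNFα library and 12 only in the FSK/TNFα library. In the 7, the partners with FSK/TNFα had 7.38 to 12.8 normalized H3AcK27 tags, and in the 12 they had 9.33 to 53.2. Their tags in the TNFα library overlapped widely, with 10 to 74.4 in the 7 and 17.9 to 83.7 in the 12. The widths of the partners moved with these values, with medians of 500 and 940.5 bp. Over all 25 regions with p65, the total was higher with TNFα alone in 19 and the value per kb in 21. The strongest p65 score among the 7 was 15, in a region 3176 bp upstream of Csf2, the gene of the cytokine GM-CSF. This region had 74.4 normalized H3AcK27 tags with TNFα (4.45-fold over input) and 8.16 with FSK/TNFα, and the nearest control region was 26192 bp away. It was 1 of 3 TNFα-only regions around Csf2, whose start site lay in no region of the 4 H3AcK27 lists. The others lay 12414 bp and 29133 bp downstream of its start, with 78.3 and 56.5 normalized tags with TNFα and 19.8 and 8.55 with FSK/TNFα. The partners were narrower, at 500, 805, and 500 bp in the same order against 2502, 1954, and 2496 bp. Per kb, the 3 regions near Csf2 had 29.7, 40.1, and 22.6 normalized tags with TNFα and 16.3, 24.6, and 17.1 with FSK/TNFα.

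**Figure D3:**
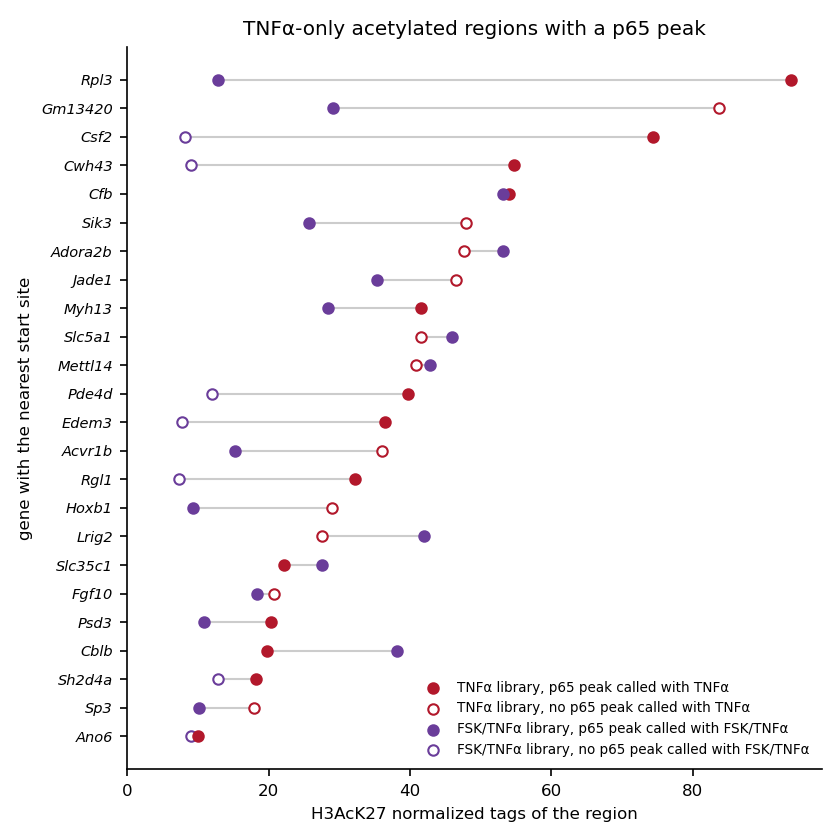
The rows are 24 of the 25 TNFα-only regions with a p65 peak, each named by the gene with the nearest start site, and the x axis gives H3AcK27 normalized tags in the TNFα (red) and FSK/TNFα (purple) libraries. Filled points mark a p65 peak called in the library of the same treatment and open points none. Totals cover each region's own width, which often differed between the libraries (3663 bp against 627 bp near Rpl3). The total is lower with FSK/TNFα in most rows, and higher at Adora2b, Cblb, Slc35c1, Lrig2, Mettl14, and Slc5a1.

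NF-κB sequences were searched in the central 500 bp of every region, on both strands, as GGAANTTCC, as GGGANTTTC, and as the decamer of the study, whose matches include a GGAANTTCC match by construction and may overlap GGGANTTTC. One or more of them occurred in 62 of the 1362 TNFα-only regions (4.55%, interval 3.57 to 5.79%), in 3.61% of all TNFα regions, in 2.82% of FSK-only regions, and in 2.21% of the regions called only without TNFα. The decamer alone occurred in 14 (1.03%, interval 0.613 to 1.72%), compared with 0.436%, 0.166%, and 0.101%. The groups lay further apart among wider regions. Among the 296 over 1000 bp, 30 held a match (10.1%, interval 7.19 to 14.1%). The share was 3.82% (interval 3.61 to 4.04%) among all TNFα regions of that width, 2.35% (interval 0.919 to 5.89%) among 170 FSK-only regions, and 1.33% (interval 0.520 to 3.38%) among 300 regions called only without TNFα. For GGGANTTTC the shares were 8.11%, 2.66%, 2.35%, and 1.00%, and for the decamer 3.04%, 0.481%, 0, and 0. Over 1500 bp the share with any pattern was 13.5% of 126 TNFα-only regions and 3.72% of the list, and over 750 bp 7.14% of 504 and 3.70%. Among the 1066 regions of at most 1000 bp it was 3.00% (interval 2.13 to 4.21%), beside 3.23% of the list. Outside promoters it was 4.45% (interval 3.46 to 5.72%) and 3.79% at all widths, and 9.61% (interval 6.69 to 13.6%) and 4.21% over 1000 bp. The window had the same length at every width, so it covered a smaller part of wider regions. Over 1000 bp the median width was 1389.5 bp for TNFα-only regions and 2273 bp for the list. The part of width in these shares was not tested. The width limits were chosen after the data were seen, and the differences carry counting intervals but no test. A match is a run of letters and not a measured site. Because looser forms of the NF-κB site were not searched, a region without a match may still hold one.

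**Figure D4:**
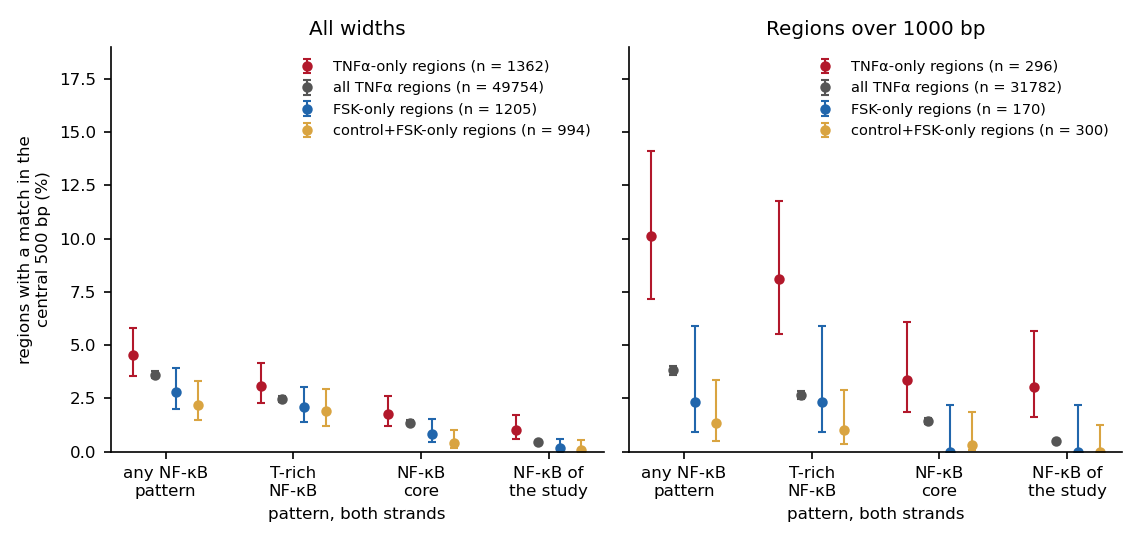
The y axes give the percentage of regions with a match in their central 500 bp and the x axes the NF-κB pattern, with regions of all widths on the left and those over 1000 bp on the right. T-rich is GGGANTTTC, core is GGAANTTCC, and the last is the decamer of the study. Points are shares and bars 95% Wilson intervals over regions in the 4 groups. Over 1000 bp, 10.1% of TNFα-only regions held any pattern, beside 3.82% of all TNFα regions.

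Most of the regions with an NF-κB match had no p65 peak. Among the 30 wide ones, 4 had a p65 peak in a TNFα-treated library (13.3%, interval 5.31 to 29.7%), and among the 266 wide regions without a match 15 did (5.64%, interval 3.45 to 9.09%). The 4 with a match included the regions at Cfb, in Sik3, and in Pde4d. In Pde4d the match lay outside the 200 bp at the p65 peak. None of the 32 narrow regions with a match had one. Irak3, Dab2ip, Tgm2, and Trim56 were picked from the genes nearest to the printed decamers after their values were seen. St8sia6, Smurf1, and Macf1, nearest to other printed decamers, are not described further. Irak3 encodes an inhibitor of Toll-like receptor signaling, and its region in an intron had 27.5 normalized H3AcK27 tags with TNFα and 25.7 with FSK/TNFα, with the nearest control region 18866 bp away. A second region, 2589 bp upstream of the Irak3 start, had 16.1 and 7.77 tags. Dab2ip encodes a scaffold of TNF receptor signaling, with 25.4 and 10.5 tags. Tgm2 encodes transglutaminase 2, an NF-κB target, and its region 898 bp downstream of the start had 38.3 and 30.7 tags. The region near Trim56, which encodes a ubiquitin ligase, was intergenic and had 54.7 and 14 tags. None of these 5 regions had a p65 peak. CRTC2 peaks were called with FSK/TNFα in the intron of Irak3 (score 10) and at Tgm2 (score 16), and with TNFα near Trim56 (score 8).

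In the 200 bp at p65 peaks of the TNFα library, GGAANTTCC or GGGANTTTC occurred in 2 of 13 peaks within TNFα-only regions (15.4%, interval 4.33 to 42.2%) and in 13.1% of the peaks within all TNFα regions. With FSK/TNFα it occurred in 4 of 18 (22.2%, interval 9.0 to 45.2%) and 10.8%. Over all p65 peaks, in acetylated regions or not, the shares were 6.45% with TNFα and 5.14% with FSK/TNFα. The peaks with a match included that of the TNFα library at Cfb and those of the FSK/TNFα library near Jade1 and in Sik3. The window at the FSK/TNFα peak of Cfb held neither pattern. All of these shares count the searched patterns only and leave out looser forms of the NF-κB site. Of the other patterns searched in the central 500 bp, the AP-1 site TGAGTCA occurred in 19.1% of TNFα-only regions (interval 17.1 to 21.3%) and 20.3% of all TNFα regions, and in 26.0% (interval 21.3 to 31.3%) of those over 1000 bp beside 21.4%. Outside promoters, which hold a larger part of the list than of the members, AP-1 occurred in 19.05% (interval 17.01 to 21.3%) and 23.97%, and over 1000 bp in 26.0% (interval 21.2 to 31.4%) and 28.1%, so the direction among wide regions turned. The C/EBP pattern TTGCNNAA occurred in 21.7% and 21.2%. The CREB core TGACG occurred in 13.1% of TNFα-only regions (interval 11.5 to 15.0%), below the 17.7% of the list, but the shares were 13.5% and 13.6% among regions of at most 1000 bp, and outside promoters 13.1% (interval 11.3 to 15.0%) and 14.2%. The STAT pattern TTCNNNGAA (16.1% and 16.4%), ACANNNTGT of steroid receptors (16.7% and 15.5%), the IRF pattern (10.6% and 9.23%), and TGTGGTTT of RUNX factors (4.85% and 4.90%) had list shares within the intervals of the members. GGAATG of TEAD factors was less frequent, at 23.4% (interval 21.2 to 25.7%) and 26.4%, and outside promoters at 23.7% (interval 21.5 to 26.1%) and 28.0%. The PPARγ pattern DR1 occurred in 9 regions (0.661%, interval 0.348 to 1.25%) and 0.890% of the list, and the full CREB palindrome TGACGTCA in 5 (0.367%) and 0.669%.

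CRTC2 was seldom called in TNFα-only regions. With TNFα 30 of them held a CRTC2 peak (2.20%, interval 1.55 to 3.13%), compared with 22.2% of all TNFα regions, and with FSK/TNFα 35 did (2.57%, interval 1.85 to 3.55%), compared with 20.3%. The counts were 4 in the control and 17 in the FSK library, where 3086 and 10248 CRTC2 peaks lay in regions of the TNFα list. The gap was smaller outside promoters and among narrow regions, but not among wide ones. At promoters 77.0% of all TNFα regions held a CRTC2 peak with TNFα. The share was lower among the 60 TNFα-only regions at promoters, as most of the 30 with a peak lay elsewhere. Outside promoters 1.92% of TNFα-only regions (interval 1.30 to 2.82%) and 7.08% of the list did. Among regions of at most 1000 bp the shares with TNFα were 1.78% of TNFα-only regions and 2.53% of the list, and among wider regions 3.72% (interval 2.09 to 6.53%) and 33.4%. In FSK-only regions CRTC2 was called in 3.57% with FSK and 5.31% with FSK/TNFα (interval 4.18 to 6.73%), and among those over 1000 bp in 16.5% with FSK/TNFα (interval 11.6 to 22.8%), beside 5.07% (interval 3.09 to 8.19%) of wide TNFα-only regions. Leaving the FSK list out of the rule raised the CRTC2 share with FSK/TNFα to 5.59% of 2146 regions. Only 3 TNFα-only regions had CRTC2 peaks with both TNFα and FSK/TNFα, in Scnn1a, at Garem1, and at Lmtk2. The region in Scnn1a, a sodium channel subunit gene next to the TNF receptor gene Tnfrsf1a, had CRTC2 scores of 17 and 22, beside 18 in the FSK library. At Lmtk2 they were 24 and 23, beside 9 in the FSK library and 11 in the control library. Together, 1266 regions (93.0%) had neither a p65 nor a CRTC2 peak in any of the 8 libraries. The matching share of the whole TNFα list is not given here, so this value cannot be read as a trait of the group.

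Both factors were called in the same treatment in 3 regions. Cfb was one of them. A region 45384 bp upstream of Lrig2, a membrane protein gene, had CRTC2 scores of 24 with FSK and 38 with FSK/TNFα, and a p65 score of 12 with FSK/TNFα. Its H3AcK27 tags were 27.5 with TNFα and 42 with FSK/TNFα, and 72.0% of its central bases were repeat sequence. A region 4567 bp upstream of Cwh43 had a p65 and a CRTC2 score of 9 with TNFα, and H3AcK27 tags of 54.7 over 1574 bp with TNFα and 8.94 over 500 bp with FSK/TNFα.

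Positions were compared with 10 lists of genes, most of them of the TNFα response, with 1 of cAMP and CREB targets and 1 of adipocyte genes. A gene was counted when a region's midpoint lay within 50 kb of one of its start sites. Of 211 listed genes in the annotation, 51 had a TNFα-only region so near (24.2%), whereas 1763 of all 21842 protein-coding genes did (8.07%). With FSK-only regions it was 31 of the 211 (14.7%, all genes 7.46%), and with regions called only without TNFα 22 (10.4%, all genes 5.22%). Among genes whose start site lay in a control H3AcK27 region, 40 of 151 listed genes (26.5%) and 11.0% of all genes had a TNFα-only region nearby. Several listed genes share a region, and no test was made of these shares. The lists were chosen with earlier results of these data known, so the shares are a description only.

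Subunits, inhibitors, and feedback regulators of NF-κB had a TNFα-only region within 50 kb in 8 of 21 cases (38.1%), compared with 5 for FSK-only regions and 2 for regions called only without TNFα. The nearest to a start site was at Ikbkb, the IκB kinase that starts NF-κB signaling, 0.263 kb from an annotated start, with 19 normalized H3AcK27 tags with TNFα and 24.9 with FSK/TNFα. The region 4.95 kb upstream of Relb, an NF-κB subunit, was weak, with 5.36 and 10.1 tags. A region 6.61 kb upstream of Zc3h12a, a ribonuclease that degrades cytokine mRNAs, had 22.2 and 14.4 tags, with a control region 626 bp away. The others were Tnip1, with 4 regions, Rela, Rel, Tnfaip3, and Nfkbia. Nfkbia encodes the inhibitor IκBα, and its region at 34.6 kb had the highest TNFα value of the 8, 52.6 tags, and 21.8 with FSK/TNFα. None of the 8 nearest regions had a p65 peak in a TNFα-treated library.

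In TNF receptor signaling and survival 8 of 22 genes were near a TNFα-only region (36.4%), against 1 for FSK-only regions and 1 for regions called only without TNFα. The death receptor gene Fas had a region of 49 normalized H3AcK27 tags with TNFα and 23.7 with FSK/TNFα 13.6 kb downstream of its start, 10149 bp from the nearest control region. Birc3, an inhibitor of apoptosis, had a weak region with 5.72 and 20.2 tags, which also lay within 50 kb of Birc2. Tnfrsf1a, the main TNF receptor, was 18.6 kb from the region in Scnn1a described above, which had 24.7 and 20.2 tags and was 15578 bp from a control region.

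The acute phase and complement list had the highest share, 6 of 13 genes (46.2%), with 2 for FSK-only regions and 0 for regions called only without TNFα. Cfb led it. Orm1 and Orm2, which encode orosomucoids, shared a region with 12.2 normalized H3AcK27 tags with TNFα and 12 with FSK/TNFα, 6.28 kb upstream of Orm1. The serum amyloid A genes Saa1 and Saa2 shared a weaker one, with 5.72 and 6.22 tags. The region nearest to Lcn2, the iron carrier lipocalin 2, was 26.1 kb away with 13.6 and 15.2 tags. The regions nearest to the 6 genes were thus 4 in number.

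Chemokine genes were near a TNFα-only region in 3 of 20 cases (15.0%). One region served both neutrophil chemokine genes Cxcl1 and Cxcl2. It lay between them, 6.83 kb downstream of the Cxcl1 start and 5.80 kb upstream of Cxcl2, with 6.79 normalized H3AcK27 tags with TNFα and 8.94 with FSK/TNFα, both below the medians of TNFα-only regions. The start site of Cxcl1 was in a region of each of the 4 H3AcK27 lists, and that of Cxcl2 was in none. Cxcl12 had a region of 24 and 12.4 tags at 31.3 kb. Cytokines, colony stimulating factors, and their regulators gave 5 of 26 (19.2%). Besides Csf2 they were Il33, an alarmin, with 7.87 and 9.72 tags 3.54 kb upstream of a start site, Il6st, the shared receptor gp130, with 21.1 and 7.77 tags, Ifngr1, and Lif.

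Adhesion and matrix genes gave 3 of 19 (15.8%), below the 5 for FSK-only regions. The 3 included Plau, the urokinase gene, with 9.3 and 13.6 tags, and Has2, a hyaluronan synthase, with 39.3 and 23.7 tags. AP-1 and immediate early genes gave 5 of 22 (22.7%). The region 3.29 kb downstream of a start of Atf3, a stress-induced repressor, had 11.4 and 14.4 tags and lay 8801 bp from a control region, and those nearest to the transcription factor genes Egr3 and Klf6 had 28.6 and 11.3 and 6.08 and 17.1 tags. Interferon genes gave 3 of 20 (15.0%), compared with 4 for regions called only without TNFα. The 3 included Stat3, a transcription factor of cytokine signaling, with 13.2 and 12 tags, and Gbp2, a guanylate-binding protein, with 12.9 and 12.8 tags.

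The cAMP and CREB list gave 7 of 22 genes (31.8%) and was the only one of the 4 highest lists in which FSK-only regions reached more genes, 8 (36.4%). The cAMP phosphodiesterase genes Pde4b and Pde4d had regions of 8.22 and 20.7 normalized H3AcK27 tags with TNFα within 5 kb of a start. The partner at Pde4b was a broad region of 339.3 tags. Another region in Pde4d, 159713 bp from the nearest start, had 39.7 tags with TNFα, 12 with FSK/TNFα, and a p65 peak with TNFα. The kinase genes Sik1, Sik2, and Sik3, which encode inhibitors of CRTC proteins, each had at least 1. The region in Sik3 had 47.9 and 25.7 tags and a p65 score of 7 with FSK/TNFα, the nearer one upstream of Sik2 had 10.4 and 10.1 tags, and that near Sik1 had 13.2 and 10.1.

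Adipocyte identity and lipid genes had the lowest share, 3 of 27 (11.1%), against 4 for FSK-only regions and 5 (18.5%) for regions called only without TNFα. Klf15, a regulator of adipocyte metabolism, had a region of 5.72 normalized H3AcK27 tags with TNFα and 9.33 with FSK/TNFα 0.523 kb from a start, Lipe, the hormone-sensitive lipase gene, one of 10 and 9.33 at 6.58 kb, and Cebpb one of 5.72 and 16.3 at 16.7 kb. All 3 were below the median of TNFα-only regions in the TNFα library.

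**Figure D5:**
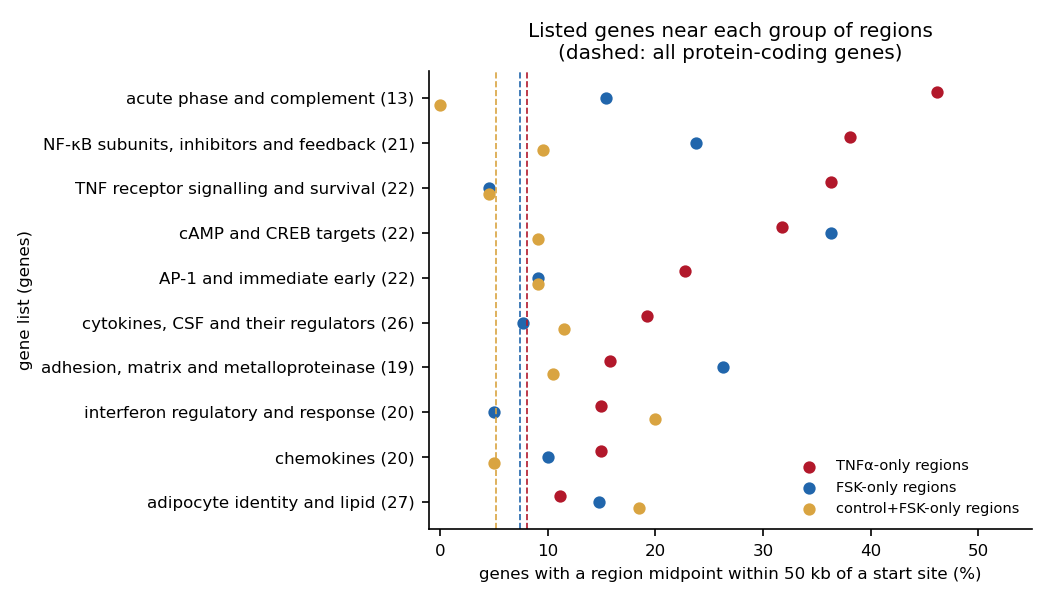
The x axis gives the percentage of genes in each of the 10 lists (rows, with the number of genes in brackets) that had a region midpoint within 50 kb of a start site. Colors mark TNFα-only, FSK-only, and control+FSK-only regions, and dashed lines show the same share over all protein-coding genes. TNFα-only regions reached 46.2% of the acute phase list and 11.1% of the adipocyte list, beside 8.07% of all genes. The lists were chosen with earlier results of these data known.

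TNFα-only regions were spread over the genome. Their share of the TNFα regions on a chromosome ran from 2.22% on chromosome 9 to 3.66% on chromosome 16, leaving out the Y chromosome, with 0 of 4 regions. They had 1157 different nearest genes, of which 1004 were nearest to 1 region and 41 to 3 or more. When regions with midpoints within 50 kb of each other were joined, 1117 stood alone, 88 groups held 2, 15 held 3, and 6 held 4. The groups of 4 lay around Hmga2, around Tnip1 and Gpx3, around Pum2, between A4galt and Arfgap3, in Ano6, and between Igf2bp2 and Senp2. Of these, only the group in Ano6 included a region with a p65 peak.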

How the data were processed

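The 12 libraries covered H3AcK27, p65, and CRTC2 under 4 treatments, with 1 library per group, so no replicate spread could be measured and no test between treatments was made. Per the labels and the submitters' processing notes, the authors aligned reads with STAR to mm10 and called peaks with HOMER, requiring 4-fold enrichment and a p-value of 0.0001 over input. As signal, the authors gave the tags in each peak after scaling a library to 10000000, and the deposited score counts tags at most once per position. The deposited fold is a ratio of tags to scaled input, and the deposited focus ratio, a fraction of tags near the peak center, was not used, nor were the p-values that the authors' HOMER runs gave.

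Region lists were intersected with a minimum overlap of 1 bp in Python 3.11.15 with numpy 2.4.6, pandas 2.3.3, and pysam 0.24.0. Start sites came from GENCODE M21 (21842 protein-coding genes) and sequence from RefSeq GRCm38.p6. Genome letters were searched for 13 patterns in windows of 500 bp around region midpoints and 200 bp around p65 midpoints. Shares carry 95% Wilson intervals. Before use, the overlap steps were tested on 3000 simulated regions, where 753 of 753 planted regions were recovered and 6 of 6 checks passed.

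The members and gene lists were chosen with earlier results of these data known. Genes were named by rule: the 10 regions with the highest mean tags, those with p65 in both TNFα-treated libraries, those with p65 and CRTC2 in the same treatment, the 5 strongest over a start site, and the 3 nearest genes of each list. The ranking by the lower tag value, the genes named from the regions with NF-κB matches, the 3 regions with CRTC2 in both treatments, and other list genes were chosen after their values were seen. Alternatives changed the overlap, distance, enrichment, lists used, peak width, promoter extent, motif window, and gene distance. The width limits and the condition on partners were added after the data were seen. A few members, genes, and sequences are not reported here.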

Additional observations from a re-analysis of the deposited data

How the results depend on the processing

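Of 73 alternative values for 12 results, 41 stayed within the counting interval or within 1.5 times the count, and 32 moved. The number of TNFα-only regions was 509 without those that had a control or FSK region within 5000 bp, 43 at 8-fold enrichment, 2146 with the FSK list left out, and 7364 with the FSK/TNFα list left out. The 43 regions of 8-fold enrichment gave p65 shares of 2.33% with TNFα and 2.33% with FSK/TNFα, and a CRTC2 share of 0 with FSK/TNFα. Leaving out the FSK list gave CRTC2 shares of 3.31% (TNFα) and 5.59% (FSK/TNFα). CRTC2 peaks of 8-fold or more gave 1.47% and 1.54%, and widened peaks gave 3.82% with FSK/TNFα. Up to 1000 bp the p65 shares were 0.188% and 0.469%, and over 1000 bp 3.72% and 4.39%, where CRTC2 gave 3.72% and 5.07%. Any NF-κB pattern gave 3.00% up to and 10.1% over 1000 bp, the decamer 0.469% and 3.04%, and AP-1 26.0% over 1000 bp. Windows of 1000 bp and 200 bp gave 9.03% and 2.28% for any NF-κB pattern, 1.84% and 0.514% for the decamer, 34.1% and 7.71% for AP-1, and 26.3% and 4.92% for the CREB core, as longer windows hold more sequence. Within 20 kb 31 listed genes had a region. Apart from the windows, the causes were not tested. No paired analysis was possible because each group had 1 library and the labels carry no replicate numbers. The H3AcK27 libraries differed in depth, from 9832884 tags with FSK to 27966129 with TNFα, and its part in the calls was not tested.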
